A study of Mus musculus with 8 samples.

Results

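The genes described here encode the nuclear subunits of the respiratory chain and of the mitochondrial ATP synthase. They were chosen by symbol, as names beginning with Ndufa, Ndufb, Ndufc, Ndufs or Ndufv and a number, Uqcr, Cox4 to Cox8 or Atp5, together with Sdha, Sdhb, Sdhc and Sdhd. The rule took 84 of the 23361 genes listed, of which 37 belong to complex I, 4 to complex II, 8 to complex III, 18 to complex IV and 17 to complex V. A mean of at least 1 FPKM (fragments scaled to transcript length and to the mapped fragments of the library) over all libraries was reached by 78 of them, and these were tested.

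RNA was sequenced from mouse induced regulatory T cells (iTreg), in 4 libraries of Nrp-1+ iTreg and 4 of Nrp-1- iTreg. In both groups naive CD4+ T cells came from WT Foxp3-RFP reporter mice, of the B6 strain by the study's methods. They were activated with anti-CD3/CD28 beads in the presence of TGF-β and IL-2. The doses were 2 ng/ml and 50 U/ml by the labels, and the study's methods state the IL-2 dose differently. Foxp3-RFP+ CD4+ cells were then sorted by surface Nrp-1 (neuropilin-1, a co-receptor found on many regulatory T cells). The treatment label and the study's methods place the sort after 3 days of culture, while the time label of the samples reads day 5. The labels name no difference between the groups but the Nrp-1 gate, and both hold cells made in culture. The labels call the libraries of a group biological replicates and do not say whether these were separate mice or separate cultures, so the p-values measure the spread between these libraries.

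Complex I takes electrons from NADH and complex II from succinate. Both pass them through ubiquinone to complex III, and cytochrome c carries them on to complex IV, which reduces oxygen. Complexes I, III and IV pump protons, and complex V, the ATP synthase, makes ATP as protons flow back. Each of the complexes other than II also holds subunits encoded by mitochondrial DNA, which are not analysed here. Activated T cells increase both glycolysis and respiration, and regulatory T cells are known for relying on respiration more than effector T cells do.

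The sort was visible in Nrp1 itself, with a mean of 21.5 ± 0.709 against 4.95 ± 0.262 FPKM (SD, n = 4). Foxp3, the defining factor of regulatory T cells, was at 111.5 to 120.5 FPKM in Nrp-1+ and 107.1 to 109.9 FPKM in Nrp-1- iTreg, without overlap (log2 fold change 0.09, limma adjusted p = 0.0245). Of 7 tested T cell and Treg genes 2 rose, Foxp3 and Il2ra (0.22), and 3 fell, Cd3d (-0.18), Ctla4 (-0.16) and Cd3g (-0.11). Of the other cell types checked, the B cell genes summed to 5.21 to 5.91 FPKM in Nrp-1+ and 4.01 to 5.80 FPKM in Nrp-1- iTreg, the myeloid genes to 6.46 to 7.17 and 5.38 to 6.21 FPKM, the CD8 and NK genes to 7.17 to 8.88 and 9.44 to 11.3 FPKM, and the erythroid and platelet genes to 5.51 to 8.02 and 2.01 to 3.28 FPKM. The 10 proliferation genes all rose, with summed levels of 1524 to 1572 against 851.4 to 871.3 FPKM. A single gene made up most of each sum for another cell type. These were Cd79b for B cells (Ms4a1 and Pax5 at 0), Itgam for myeloid cells (6.70 against 5.56 FPKM, limma adjusted p = 0.00136), Cd8b1 for CD8 and NK cells (7.86 against 10.0 FPKM, limma adjusted p = 0.0119, with Cd8a under 0.111 FPKM in every library) and Hba-a1 for erythroid cells (6.10 against 2.52 FPKM, limma adjusted p = 0.00051, with Pf4 at 0). Itgam, Cd8b1 and Hba-a1 did not overlap between the groups. The part of these genes in the results on the subunits was not tested. The libraries also differed in the share of FPKM on short RNA genes, from 1.77% to 43.9%, and in relative depth, from 0.81 to 1.24 times that of Nrp-1+ replicate 1. The subunit genes held 2.33% to 2.51% of the remaining FPKM.

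Most subunit genes were at much the same level in both subsets. Of 78 tested genes, 5 were higher and 8 were lower in Nrp-1+ iTreg at an adjusted p under 0.05 (limma on log2(FPKM + 1), Benjamini-Hochberg adjusted over all genes tested), which is 16.7%. Of all 10467 genes tested, 40.9% passed the same threshold, 20.9% higher and 20% lower. The median log2 fold change of the subunit genes was -0.0020, beside -0.0155 for all genes, and the median size of the change, without its sign, was 0.0523 beside 0.116. The median standard errors were alike, at 0.0449 and 0.0460. For 73 of the 78 genes the 95% interval of the log2 fold change lay within the log2 size of a 25% rise, taken in either direction. Of these 73, 12 had passed the test. The same held for 7240 of all 10467 genes, of which 2130 had passed. Among the 1072 tested genes that were at least as abundant as the lower quartile of the subunit genes, 53.1% passed. The median standard error of these 1072 genes was 0.0314, below the 0.0449 of the subunit genes, so the 2 shares were not reached at equal precision.

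The split into higher and lower depends on the scaling. With libraries set to equal summed FPKM without short RNA genes, 17 subunit genes were higher and 4 lower, against 26.3% and 9.28% of all genes. After correction for GC content and length, 6 were higher and 16 lower, against 19.1% and 29.8%. With quantile normalization, 1 was higher and 2 were lower, against 16.9% and 19.3%. The 4 values of one subset lay wholly above those of the other for 8 of the 78 genes (10.3%), beside 39.5% of all genes tested.

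**Figure D1:**
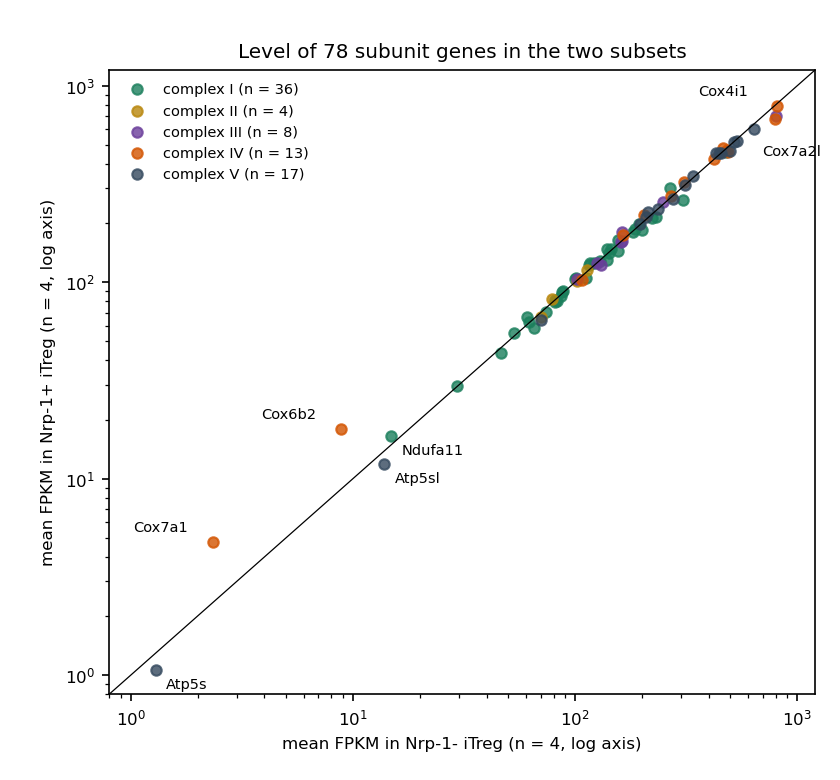
Mean FPKM of 78 subunit genes in Nrp-1+ iTreg (y axis) against Nrp-1- iTreg (x axis), both log axes, n = 4 libraries each, coloured by complex, with the line of equal levels. Most genes lie close to the line from 1.18 to 800.5 FPKM, and Cox6b2 and Cox7a1 lie above it.

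**Figure D2:**
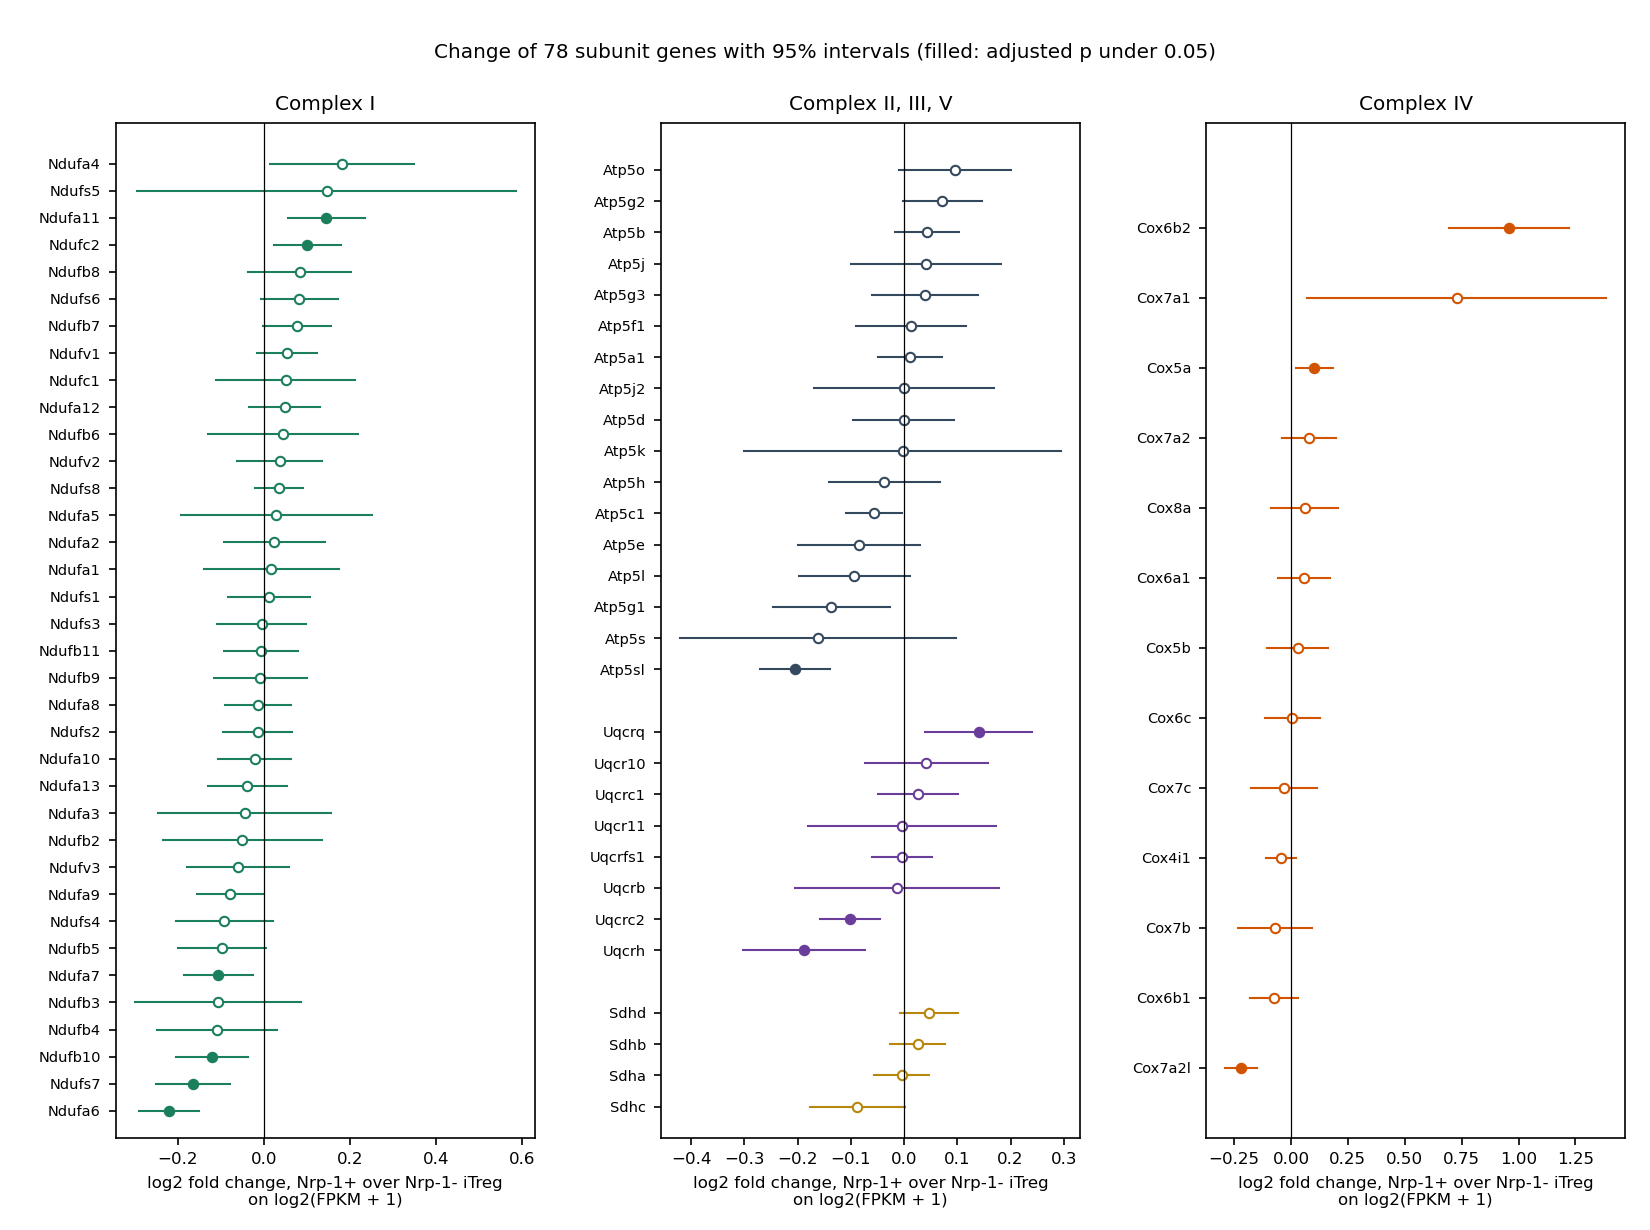
Log2 fold change of each tested subunit gene, Nrp-1+ over Nrp-1- iTreg on log2(FPKM + 1), with its 95% interval (limma, 4 against 4 libraries). Filled points passed an adjusted p of 0.05, and the panels have x axes of different range. The 13 filled points include 5 to the right of 0 and 8 to the left.

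Of the 13 genes that passed the test, Cox6b2, of complex IV, had the largest fold change. Cox6b2 encodes the testis-enriched form of subunit 6B, whose common form is Cox6b1, and subunit 6B lies on the side of complex IV where cytochrome c docks. Because this pair holds that gene and its common form, the promoters of both are shown, 250 bases before to 50 after the annotated start (RefSeq, GRCm38.p6), with Cox6b1 at chr7:30626065-30626364 and Cox6b2 at chr7:4753045-4753344, both on the minus strand. Capitals mark the match to the GABPA motif described further on.
Cox6b1: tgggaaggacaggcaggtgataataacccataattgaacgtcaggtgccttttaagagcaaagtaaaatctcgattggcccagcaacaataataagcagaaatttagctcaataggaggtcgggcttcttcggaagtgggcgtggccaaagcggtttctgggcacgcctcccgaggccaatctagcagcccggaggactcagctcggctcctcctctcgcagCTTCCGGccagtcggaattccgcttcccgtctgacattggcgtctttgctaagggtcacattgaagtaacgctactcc
Cox6b2: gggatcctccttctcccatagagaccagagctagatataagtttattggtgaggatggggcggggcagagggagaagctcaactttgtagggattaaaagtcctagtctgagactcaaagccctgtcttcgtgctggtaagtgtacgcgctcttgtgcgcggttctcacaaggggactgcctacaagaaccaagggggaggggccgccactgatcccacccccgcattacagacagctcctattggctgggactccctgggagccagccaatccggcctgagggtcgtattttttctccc

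Cox6b2 was at 18.9, 16.1, 19.0 and 17.7 FPKM in Nrp-1+ replicates 1 to 4 and at 8.32, 10.3, 6.82 and 9.80 FPKM in Nrp-1- replicates 1 to 4. Every Nrp-1+ library was above every Nrp-1- library. The means were 17.9 ± 1.32 and 8.82 ± 1.58 FPKM (SD, n = 4), with a log2 fold change of 0.96 (SE 0.11, limma adjusted p = 0.000318). Cox6b1 was far more abundant, at 444.3 to 487.1 against 449.7 to 514.4 FPKM, and these ranges overlapped (log2 fold change -0.07, limma adjusted p = 0.230). Cox6b2 thus made up 3.73% ± 0.229 (SD, n = 4) of the summed FPKM of the pair in Nrp-1+ and 1.78% ± 0.304 in Nrp-1- iTreg. The exact two-sided permutation p was 0.0286, the smallest that 4 against 4 libraries allow, and 0.0571 when adjusted over the 6 isoform shares compared.

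Of the other tissue-restricted isoforms, Cox7a1, the heart and muscle form of subunit 7A, was at 2.66, 8.23, 4.61 and 3.56 FPKM in Nrp-1+ and 1.67, 1.69, 2.92 and 3.07 FPKM in Nrp-1- replicates. The groups overlapped and Nrp-1+ replicate 2 was the highest. The ratio of the means was 2.04, beside 2.03 for Cox6b2. The log2 fold change was 0.73 (SE 0.29) and did not pass (limma adjusted p = 0.0740). The log2 fold change of Cox7a1 was 0.47 without Nrp-1+ replicate 2 (limma adjusted p = 0.126) and 0.92 without Nrp-1+ replicate 1, where it passed (0.0355), as it did with short RNA genes left out of the fit (0.0253). Cox4i2, the lung form of subunit 4, had a mean of 0.262 FPKM and was not tested. Cox8b and Ndufa4l2 were above 0 in a single library each, and Cox6a2, Cox7b2 and Cox8c were listed at 0 in all 8.

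Cox7a2l, related to the subunit 7A genes and known as a factor that joins complexes III and IV into supercomplexes, fell in RNA. Supercomplexes were not measured. Its level was 688.1, 673.1, 695.1 and 668.3 FPKM in Nrp-1+ and 756.3, 791.8, 803.8 and 823.7 FPKM in Nrp-1- replicates. No Nrp-1+ library reached the lowest Nrp-1- library. The log2 fold change was -0.22 (SE 0.03, limma adjusted p = 0.000733). Cox7a2, the common form of subunit 7A, was at 173.3 ± 7.03 against 164.4 ± 11.03 FPKM (SD, n = 4; limma adjusted p = 0.267). Cox7a2l made up 79.7% ± 0.414 of the sum of both genes in Nrp-1+ and 82.9% ± 0.505 in Nrp-1- iTreg, with an exact permutation p of 0.0286 (adjusted 0.0571).

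Elsewhere in complex IV, Cox5a, which sits on the matrix side, rose by a small amount, from 204.9 ± 2.83 to 220.2 ± 10.8 FPKM (SD, n = 4), with overlapping groups (log2 fold change 0.10, limma adjusted p = 0.0462). That call was kept in 8 of 22 alternative fits, and the adjusted p rose to as much as 0.307. Cox4i1, the most abundant of all the subunit genes at 800.5 FPKM, had a log2 fold change of -0.04 and did not pass (limma adjusted p = 0.260). In all, 2 of the 13 tested complex IV genes rose and 1 fell.

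**Figure D3:**
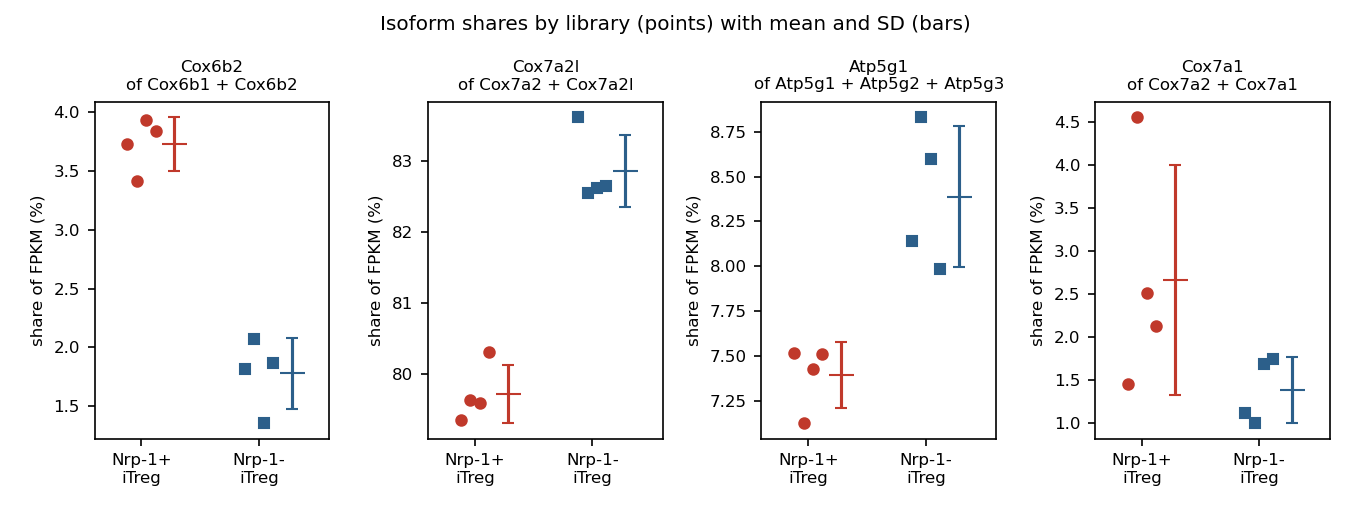
Share of each isoform in the summed FPKM of its family (percent), by library, with mean and SD (n = 4); each y axis covers the range of its own values and does not start at 0. The shares of Cox6b2, Cox7a2l and Atp5g1 do not overlap between Nrp-1+ (red circles) and Nrp-1- (blue squares) iTreg, and those of Cox7a1 do.

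In complex I, 2 of 36 tested genes rose and 4 fell. With equal summed FPKM without short RNA genes 8 were higher and 1 lower, beside 26.3% and 9.28% of all genes. After correction for GC content and length these counts were 2 and 7, beside 19.1% and 29.8%. With quantile normalization they were 0 and 1, beside 16.9% and 19.3% (all limma). Ndufa6, an accessory subunit of the matrix arm, was at 265.5, 265.9, 266.0 and 257.0 FPKM in Nrp-1+ and 291.9, 308.5, 308.9 and 320.0 FPKM in Nrp-1- replicates. The groups did not overlap. Its log2 fold change was -0.22 (SE 0.03, limma adjusted p = 0.000674). Ndufs7, a core subunit that holds the last iron-sulphur cluster before ubiquinone, was at 56.2, 56.7, 59.7 and 61.2 FPKM in Nrp-1+ and 63.1, 67.8, 63.8 and 67.7 FPKM in Nrp-1- replicates, again without overlap (log2 fold change -0.16, SE 0.04, limma adjusted p = 0.00846). Ndufa11, a membrane accessory subunit, was at 17.81, 15.65, 16.72 and 15.96 FPKM in Nrp-1+ and 14.97, 14.57, 15 and 14.84 FPKM in Nrp-1- replicates. It rose without overlap (log2 fold change 0.14, SE 0.04, limma adjusted p = 0.0189).

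The remaining calls in complex I were small. Ndufb10 fell by 0.12 on the log2 scale (limma adjusted p = 0.0282). Ndufa7, with a log2 fold change of -0.11 (limma adjusted p = 0.0402), and Ndufc2, with 0.10 (limma adjusted p = 0.0455), are named after their values were seen. The groups overlapped for all 3 genes, and of 22 alternative fits 14 kept the call of Ndufb10, 10 that of Ndufa7 and 11 that of Ndufc2. Ndufa4, which is now counted with complex IV, had a log2 fold change of 0.18 and did not pass (limma adjusted p = 0.0793). Ndufs5 had the largest standard error of the complex I genes on log2(FPKM + 1), 0.19, and ranged from 40.7 to 76.3 FPKM over the 8 libraries.

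Complex III had 1 gene that rose and 2 that fell, of 8 tested. Uqcrh, the hinge protein near cytochrome c1, was at 744.1, 709.2, 696.4 and 668.1 FPKM in Nrp-1+ and 741.8, 789.1, 838.6 and 844.7 FPKM in Nrp-1- replicates. The groups overlapped only through Nrp-1+ replicate 1 and Nrp-1- replicate 1. Its log2 fold change was -0.19 (SE 0.05, limma adjusted p = 0.0169). The call of Uqcrh was lost with quantile normalization and with the replicate block, with a limma adjusted p of up to 0.516. Uqcrc2, a core protein, was at 122.4 ± 2.96 against 131.4 ± 2.67 FPKM (SD, n = 4), without overlap (log2 fold change -0.10, limma adjusted p = 0.0111). The log2 fold change of Uqcrc2 was -0.04 with equal summed FPKM without short RNA genes (limma adjusted p = 0.282), and the call was also lost with quantile normalization (0.162) and without the 3 libraries highest in short RNA genes (0.0853). Uqcrq, a small subunit, was at 179.4 ± 7.71 against 162.8 ± 8.25 FPKM (log2 fold change 0.14, limma adjusted p = 0.0343), a call kept in 14 of 22 alternative fits. The Rieske protein gene Uqcrfs1 was at 125.3 ± 2.97 and 125.6 ± 2.52 FPKM.

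Complex II, which is also an enzyme of the citric acid cycle, had no gene past the threshold among its 4 (limma). Its genes had a median standard error of 0.0232, below that of the other complexes. Sdha, the flavoprotein, was at 101.8 ± 2.34 and 102.1 ± 1.53 FPKM (SD, n = 4), and Sdhb, the iron-sulphur protein, at 114.8 ± 2.61 and 112.8 ± 1.79 FPKM. Sdhc, a membrane anchor, had the largest change of the 4, at 66.2 ± 3.47 and 70.4 ± 1.99 FPKM (log2 fold change -0.09, limma adjusted p = 0.105). It passed as lower in 5 of 22 alternative fits, with an adjusted p of 0.0087 when Nrp-1+ replicate 4, its highest Nrp-1+ library, was left out. With equal summed FPKM without short RNA genes, Sdhb and Sdhd passed as higher instead (limma adjusted p = 0.0281 and 0.00515). Sdhd, the other anchor, was at 81.1 to 82.7 FPKM in Nrp-1+ and 75.8 to 80.4 FPKM in Nrp-1- iTreg, which do not overlap, with a log2 fold change of 0.05 (limma adjusted p = 0.156).

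In complex V, 1 of 17 genes passed, Atp5sl. It was at 11.8, 12.3, 11.6 and 11.8 FPKM in Nrp-1+ and 14.25, 13.4, 14.01 and 13.62 FPKM in Nrp-1- replicates, without overlap (log2 fold change -0.20, SE 0.03, limma adjusted p = 0.000796). RefSeq now names it Dmac2, an assembly factor of complex I, and names Atp5s, the least abundant of the tested genes, Dmac2l. Without these genes none of the 15 true ATP synthase genes passed, and all 15 intervals lay within the log2 size of a 25% rise, taken in either direction. That count depends on the setting, since Atp5g1 passed as lower in 7 of 22 alternative fits and Atp5c1 in 3. Of the 17 complex V genes, 3 were higher and 1 lower with equal summed FPKM, beside 26.3% and 9.28% of all genes. After correction for GC content and length 1 was higher and 4 were lower, beside 19.1% and 29.8%. The log2 fold changes of Atp5a1 and Atp5b, the catalytic head, were 0.01 and 0.04. Atp5g1, Atp5g2 and Atp5g3 encode the same mature ring subunit c. Atp5g1 held 7.40% ± 0.184 of their sum in Nrp-1+ and 8.39% ± 0.392 in Nrp-1- iTreg (SD, n = 4), without overlap (exact permutation p = 0.0286, adjusted 0.0571), and its own log2 fold change was -0.14 (limma adjusted p = 0.0518). A pseudogene transcript closely matches Atp5g1, so its level is uncertain.

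**Figure D4:**
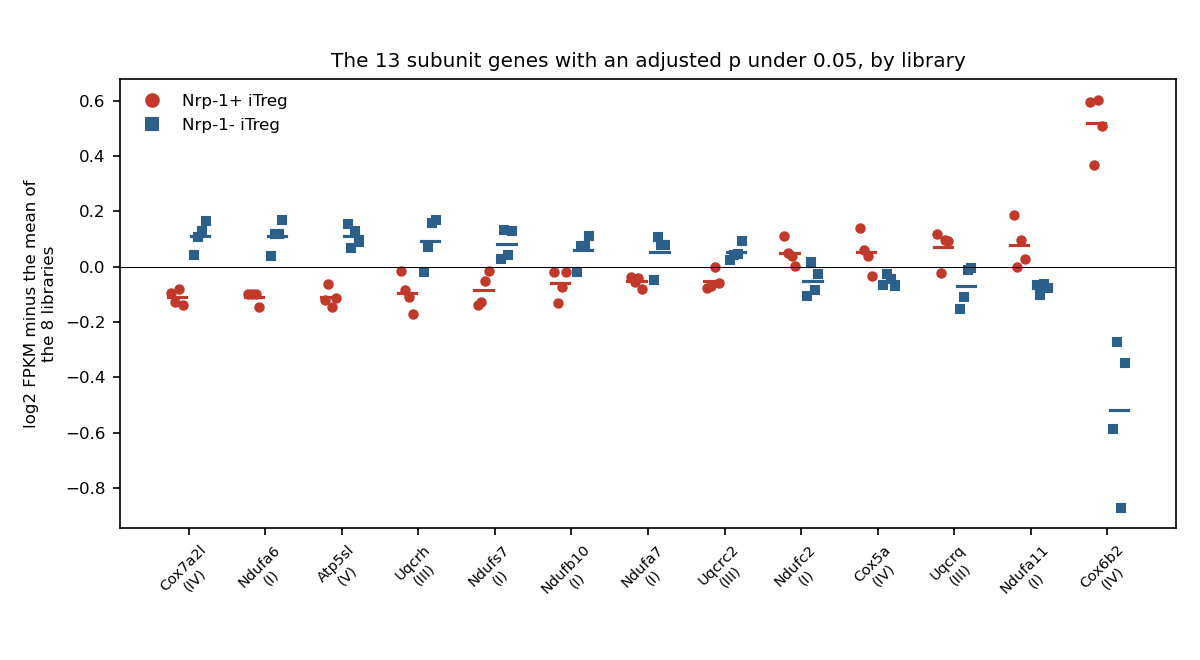
The 13 subunit genes with an adjusted p under 0.05, as log2 FPKM minus the mean of the 8 libraries, for Nrp-1+ (red circles) and Nrp-1- (blue squares) iTreg, with group means as lines and the complex in brackets. Cox6b2 stands apart in size, and the others differ by 0.22 or less in mean log2 fold change.

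The list of 17 catalytic core genes covers complexes I, II, III and V and holds no complex IV gene. None of the 17 rose and 2 fell, Ndufs7 and Uqcrc2 (11.8% called, beside 40.9% of all genes). Over the 17 genes the log2 fold changes ran from -0.16 to 0.05. The direction depends on the scaling. With equal summed FPKM without short RNA genes 4 core genes passed as higher, Ndufs8, Sdhb, Sdhd and Atp5b, and 0 as lower. Of all genes 26.3% and 9.28% did so in that fit. After correction for GC content and length 0 passed as higher and 4 as lower, beside 19.1% and 29.8% of all genes (all limma). In the unaltered comparison the other calls were of genes outside the core list.

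Libraries of one group differed in the level of the subunit genes as a whole. Their median deviation from the gene means on log2(FPKM + 1) was lowest in Nrp-1- replicate 1, at -0.0823, and highest in Nrp-1- replicate 4, at 0.0644. Subunit genes with transcripts under 1000 bases deviated by -0.115 in Nrp-1- replicate 1, and the 454 other tested genes of that length by -0.0559. That library also had the highest share of FPKM on short RNA genes, and the part of this share in the subunit levels was not tested. Without it, 2 subunit genes were higher and 11 lower, beside 19.6% and 17.9% of all genes in the same fit.

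**Figure D5:**
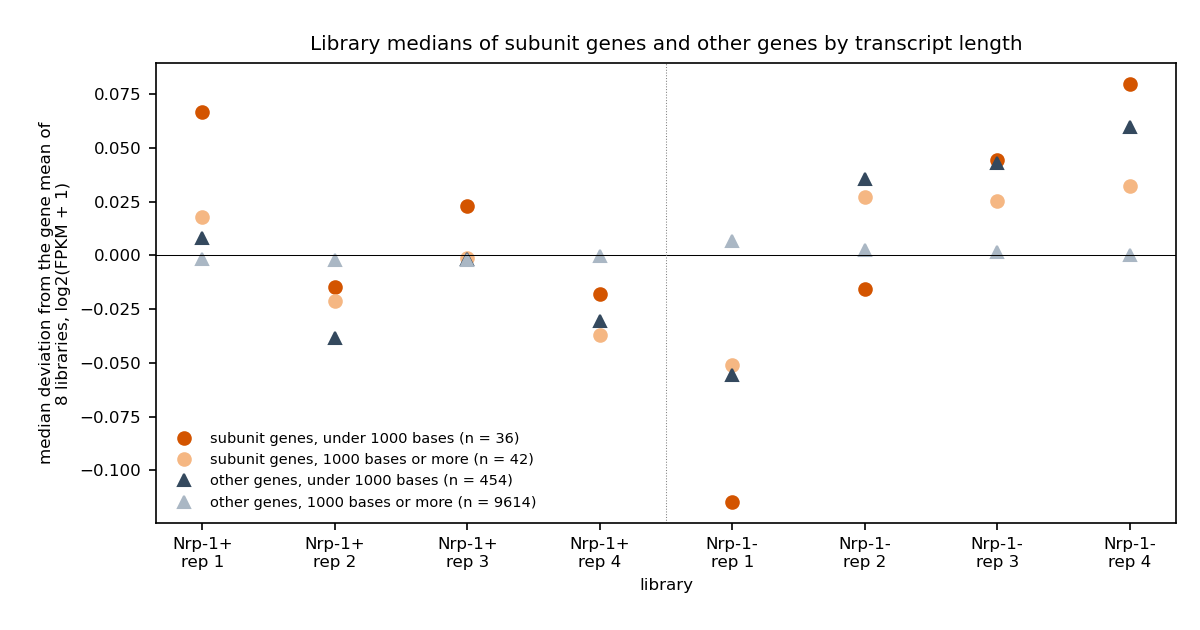
Median deviation from the gene mean of 8 libraries, on log2(FPKM + 1), for subunit genes (circles) and other tested genes (triangles) with transcripts under and over 1000 bases, by library. Nrp-1- replicate 1 is the lowest for the short genes of both kinds, at -0.115 and -0.0559.

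The genes around the chain changed in part. Of 42 tested assembly factors, 4 rose and 6 fell (median log2 fold change -0.01). Cmc2, a factor of complex IV assembly, was at 22.9 ± 0.817 against 13.8 ± 0.365 FPKM (SD, n = 4; log2 fold change 0.69, limma adjusted p = 1.3e-06), while Cox16 and Surf1, also of complex IV, had log2 fold changes of -0.38 and -0.31. Of 17 carriers and subunits outside the symbol rule, 5 rose and none fell by limma. Pdss1, an enzyme of ubiquinone synthesis, was 43.9% higher by its means, at 2.25 ± 0.37 against 1.56 ± 0.208 FPKM (SD, n = 4; log2 fold change 0.34, limma adjusted p = 0.0237). Atpif1, the inhibitor of the ATP synthase, had the largest rise on log2(FPKM + 1) and was 40.1% higher by its means, at 148.7, 153.2, 145.8 and 145.0 FPKM in Nrp-1+ and 96.5, 105.7, 103.2 and 117.8 FPKM in Nrp-1- replicates. The groups did not overlap (log2 fold change 0.49, SE 0.06, limma adjusted p = 0.000246).

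Of 14 citric acid cycle genes, 5 rose and 1 fell. Fh1, fumarase, had a log2 fold change of 0.21 and Idh3b, a subunit of isocitrate dehydrogenase, one of -0.12. Of 25 protein import genes, 2 rose and 6 fell, with Pam16 at -0.30 and Timm17b at 0.16. Of 15 regulators of mitochondrial biogenesis, 2 rose and 4 fell, with Tfb1m, a mitochondrial rRNA methyltransferase, at 0.37 and Polg2, the accessory subunit of the mitochondrial polymerase, at -0.23. Shares called in these lists ran from 23.8% to 42.9%, beside 40.9% of all genes.

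In GENCODE M21, exons of 25 of the 84 genes overlap a gene on the other strand, among them 3 of the called genes, Ndufa11, Cox5a and Uqcrc2. Exons of 5 genes overlap a gene on the same strand, Atp5g2, Atp5o, Ndufb2, Ndufb8 and Ndufb9. A short RNA gene lies inside 7 of the 84, among them Atp5g2. No gene with a same-strand overlap or a short RNA gene inside passed the test. A pseudogene transcript aligns at 95% identity or more over at least 300 bases to 6 of the genes, Atp5c1, Atp5g1, Ndufb11, Ndufb4, Ndufs3 and Ndufs5, none of which passed the test. How the authors' counting treated such reads is not given in the sources used here, and the levels of these genes are uncertain to that extent.

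RefSeq promoters (GRCm38.p6, 300 bases each) were found for 69 of the 84 subunit genes and searched on both strands for motifs of factors known to act on respiratory chain genes. The GABPA motif CCGGAAG was in 16 of the 69 (23.2%), in 23.4% of the promoters of tested genes and in 9.93% of all promoters. For NRF1, the letters CGCATGCG with a G before and a C after were in 7.25% of the subunit genes, 2.61% of tested genes and 1.07% of all promoters. For YY1, the letters AANATGGCG followed by GC were in 7.25%, 3.29% and 1.17%. The shorter letters alone, searched after those shares had been seen, were in 13%, 4.9% and 2.07% for NRF1 and in 15.9%, 6.9% and 2.76% for YY1. None of these was in the Cox6b2 window, and only the GABPA letters were in that of Cox6b1.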

How the data were processed

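The authors processed the raw data with CLC Genomics Workbench and deposited a table of FPKM values per gene from Cufflinks. The submitters' processing notes name GRCm38 (mm10), and the annotation used for counting is not given in the sources used here. The labels and the study's methods name different library kits. FPKM hold no counts, so absolute depth is unknown; relative depth was read from the steps between low values.

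From the deposited values log2(FPKM + 1) was computed for the 10467 genes with a mean of at least 1 FPKM over the 8 libraries. A fold change on this scale understates changes of low genes. Nrp-1+ and Nrp-1- iTreg were compared with limma 3.58.1 (R 4.3.3, lmFit and eBayes with trend, no covariates), with Benjamini-Hochberg adjustment over all these genes and a threshold of 0.05. Isoform shares were compared by exact two-sided permutation tests, adjusted over 6 shares. The code was tested on simulated data.

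The members and gene lists were chosen with earlier results of these data known. Named genes were the catalytic core subunits, the tissue-restricted isoforms, Atp5g1, Atp5g2, Atp5g3, Cox4i1, Cox5a, Cox6a1, Cox7a2, Cox7a2l, the 3 largest increases and decreases in each complex, the 2 largest called increases and decreases in each related list, and Nrp1. Not every gene that this rule names is reported here. Overlapping genes came from GENCODE M21 and promoters from RefSeq. The NRF1 and YY1 motifs were first searched in a longer form; the shorter forms were added after those shares had been seen.

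The alternatives tried were other pseudocounts, filters, scalings and corrections, a replicate block, and leaving out each library in turn.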

Additional observations from a re-analysis of the deposited data

Results flagged for a closer look

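In 5 of 94 groups of 4 libraries, 1 library lay farther from the rest than Dixon's 95% limit, where chance gives about 1 in 20 groups (4.7). Sdhc was at 71.4 FPKM in Nrp-1+ replicate 4 and at 63.95 to 64.8 FPKM in the other Nrp-1+ libraries. Sdhd was at 75.8 FPKM in Nrp-1- replicate 1 and at 80.04 to 80.44 FPKM in the others of that group. Atp5g2 was at 435.8 FPKM in Nrp-1+ replicate 2, with the others at 459.8 to 463.6 FPKM. Ndufa6 was at 257.0 FPKM in Nrp-1+ replicate 4, with the others at 265.5 to 266.0 FPKM, and every one of these was below every Nrp-1- library. The share of Cox7a2l in the sum with Cox7a2 was 83.6% in Nrp-1- replicate 1 and 82.55% to 82.65% in the others.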

How the results depend on the processing

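The number of subunit genes called higher, 5, became 2 with no filter, 1 with quantile normalization, 17 with equal summed FPKM without short RNA genes, 3 with the replicate block, 3 with eBayes without trend and 2 without the 3 libraries highest in short RNA genes (Nrp-1+ replicates 2 and 4 and Nrp-1- replicate 1, chosen after seeing the data). The number of subunit genes called lower, 8, became 2 with quantile normalization, 4 with equal summed FPKM, 5 with the replicate block, 16 after correcting for GC content and length and 13 when that correction was joined to the block. Leaving out 1 library gave 2 to 4 higher and 6 to 11 lower. The higher count was 2 without Nrp-1+ replicate 3, 2 without Nrp-1- replicate 1 and 3 without Nrp-1- replicate 3. The share of all genes called was counted only for some fits. These were the unaltered comparison, equal summed FPKM, quantile normalization, the GC content and length correction and the fit without Nrp-1- replicate 1. In the other fits a shift in the subunit counts cannot be told from a shift in calls over all genes. With equal summed FPKM the median log2 fold change of subunit genes was 0.0605, beside 0.0413 over all genes. The 8 subunit genes without overlap between groups became 4 with quantile normalization (5.13%, beside 36.4% of all genes), 21 under the block (26.9% beside 52.9%), 15 after correcting for GC content and length (19.2% beside 45.8%) and 8 to 18 leaving out 1 library (10.3% to 23.1%, beside 43.2% to 44.7%), with 13, 15 and 18 without Nrp-1+ replicate 1, Nrp-1+ replicate 2 and Nrp-1- replicate 1. The causes were not tested.

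As log2 ratios to the geometric mean of the family, isoform shares passed by the exact permutation test: Atp5g1 -0.13, Atp5g2 0.081, Cox6b2 0.56 and Cox7a2l -0.15, each with an adjusted p of 0.0429. Each had the smallest exact p that 4 against 4 libraries allow, 0.0286. As a plain share Atp5g2 did not pass (exact permutation p = 0.171, adjusted 0.206). The Atp5g ratios share a geometric mean, so a fall in Atp5g1 by itself raises the ratio of Atp5g2. Sign flips over 4 pairs cannot go below 0.125.

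Over 22 alternatives Cox6b2 and Atp5sl were called in all. Quantile normalization ended the calls of Cox7a2l (limma adjusted p = 0.444), Ndufa6 (0.175) and Ndufa11 (0.0595). Equal summed FPKM ended that of Ndufs7 (0.0720), with a log2 fold change of -0.10 beside -0.16 in the unaltered comparison. Over all 22 the log2 fold change of Cox7a2l stayed between -0.24 and -0.16, as did that of Ndufa6, and that of Ndufa11 between 0.11 and 0.21. Uqcrh was called in 20, Uqcrc2 in 19, Uqcrq and Ndufb10 in 14, Ndufc2 in 11, Ndufa7 in 10 and Cox5a in 8. No call turned its direction. Same-numbered libraries did not deviate together (correlations across genes of -0.537 to 0.0104 over all tested genes, -0.108 to -0.0382 without short RNA genes and -0.454 to -0.0062 over the subunit genes), so the numbers were not taken to pair the samples. FPKM without counts limit what can be said of low genes such as Cox7a1.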
